A study of Ananas comosus with 78 samples.

Results

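The genes described here are 200 pineapple (Ananas comosus) genes whose transcripts were far lower in the leaf base 6 h after ethephon than in water controls, and which were not differentially expressed (DE) at the apex at the same time. They were chosen by their values: of the genes that had an adjusted p under 0.05 for the leaf base at 6 h without being DE at the apex, the 200 with the lowest leaf base log2 fold change were taken from the 27024 genes in the files. A gene counted as DE where its log2 fold change was 1 or more in either direction and its adjusted p was under 0.05. A total of 3444 genes met the conditions on p and on the apex with a negative fold change. The 6 h fold changes are therefore a description of how the genes were picked, and only later samplings and the comparison of tissues were tested.

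Field-grown plants of cultivar 'MD1' in the sample labels ('MD2' in the growth notes) received 10 ml of water or 50 mg of ethephon in 10 ml into the centre of the plant. RNA was sequenced from the base of the "D" leaf, the youngest leaf to have matured, at 6 h and on days 1 to 4, and from the stem apex at 6 h, on days 1 to 6 and on day 8, with 3 libraries in each of 26 conditions. Each library was a pool of 3 plants from 1 field replication that held both treatments, so that single plants were not measured. By the paper, 6 h is the time by which processing of the first samples was complete. Their plants were harvested earlier, on the morning of the treatment, and the trimmed material was brought in on ice. The time on the plant after ethephon was thus shorter than 6 h in these samples. All groups shared the cultivar, the field and the application into the plant centre, and the controls differed from the treated plants in receiving water alone. Total counts were 2690517 to 7763954 in the 30 leaf base libraries and 1418697 to 13180667 in the 48 apex libraries. Of 4 KNOX and WUSCHEL genes taken as markers of the shoot apex, Aco015873 had group means of 47.2 to 451 CPM (counts scaled to the size of the library) at the apex and 0.0941 to 3.08 in the leaf base, and Aco004983 had 4.16 to 42.2 and 0 to 0.434. The group means of Aco015382 overlapped between the tissues, with 0.466 to 18.0 at the apex and 0.286 to 1.31 in the leaf base.

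Ethephon breaks down in plant tissue and releases ethylene, the hormone that growers use to bring pineapple into flower. Ethylene binds membrane receptors and, through the EIN3 family of transcription factors, changes the transcription of ethylene response factors and of many further genes. The bases of pineapple leaves surround the stem apex, which turns from a vegetative into a floral meristem after the treatment. The transcripts described here are defined by their level in the leaf base, and a function was at hand here for few of them.

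At 6 h the 200 genes took 0.380, 0.403 and 0.262% of all counts in the 3 control leaf base libraries and 0.00590, 0.00732 and 0.00532% in the 3 treated ones. Their summed level was 3016 to 4620 CPM in the control libraries and 53.4 to 73.7 CPM in the treated libraries. The 2 groups lay apart in the sum, and 188 of the 200 genes also had no overlap between the groups singly, with every treated library below every control, as did 22.6% of all 22449 genes tested. This is the contrast that picked the genes, in which 11% of all genes tested were DE down, and nothing is read from either share.

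**Figure D1:**
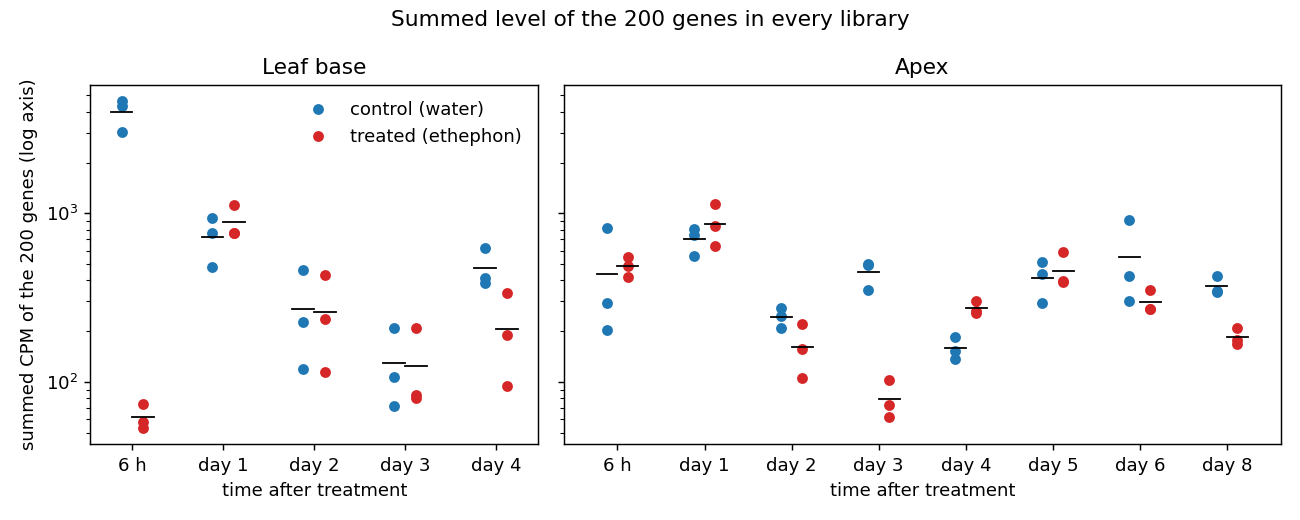
Summed CPM of the 200 genes (log axis) in every library of the leaf base and the apex by time after treatment, with a point for each of 3 libraries and a black bar at their mean. The control leaf bases at 6 h (3016 to 4620 CPM) lie above every other library and the treated leaf bases at 6 h (53.4 to 73.7 CPM) at the low end.

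Most of the genes were almost silent in the treated leaf base at 6 h. In 96 genes all 3 treated libraries had no count, and in 156 genes none had more than 3 counts. The mean level in the controls ranged from 0.659 to 425 CPM with a median of 5.63, and that in the treated leaf bases from 0 to 6.88 CPM with a median of 0.0423. The fitted log2 fold changes ran from -10.43 to -5.08 with a median of -5.94, but a fitted value against a group near 0 depends on the prior count of the fit. With 3 counts in the shallowest treated library (0.604 CPM) as the floor for those 156 genes, the median was -3.22. For 81 genes no control library held more than 20 counts.

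The 3 control libraries did not contribute equally. Replicate 1 was the highest of the controls for 77 genes, replicate 2 for 95 and replicate 3 for 28, and for 103 genes the highest control library exceeded the other 2 together. Within the 2 sequencing lanes that held both treatments at 6 h, 191 and 193 of the 200 genes were at least 1 lower on the log2 scale in the treated library, with medians of -4.29 and -3.68. In 184 genes this held in both lanes. These are the libraries that chose the genes, so that low treated values in them were fixed by the choice.

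The 10 lowest fold changes belonged to genes with no count in any treated leaf base library. Aco008555, a gene of 1 exon on linkage group 9, had 25.0, 52.5 and 21.6 CPM in the 3 control libraries, at least 54.7-fold above the floor. Aco014230 on linkage group 13 had 12.1, 44.6 and 36.8 CPM (at least 51.6-fold). Aco008388 on linkage group 19 had 14.6, 44.6 and 31.9 CPM (at least 50.2-fold). All 3 libraries of each of these genes were well above 0, with the lowest value in replicate 1 or 3.

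Aco008382 (10.1, 48.0 and 24.01 CPM), Aco020251 (22.2, 21.8 and 12.5 CPM), Aco014330 (26.0, 8.29 and 7.56 CPM), Aco008386 (5.90, 20.7 and 12.2 CPM) and Aco002934 (6.59, 13.8 and 13.2 CPM) were likewise detected in every control library, at a mean at least 45.3, 31.1, 23.1, 21.4 and 18.5-fold above the floor. The last pair of the 10 rested on 1 library. Aco028799 had 50.6, 2.42 and 3.11 CPM, and Aco015519 had 43.4, 1.73 and 2.52 CPM, so that replicate 1 alone stood far above the other control libraries. Among all 10, the mean in the later control leaf bases was 0.230 to 1.97 CPM.

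The genes with the highest control levels in CPM were not those with the lowest fold changes. Aco001249, of 2 exons on linkage group 2 (13010460-13011573), had 301, 573 and 401 CPM in the control leaf bases at 6 h and 1.78, 5.23 and 3.73 CPM in the treated ones, a ratio of means of 119. Aco001824 had 222, 295 and 207 CPM against 3.42, 10.7 and 6.53 CPM. Aco008383 had 153, 301 and 86.0 CPM against 5.20, 4.23 and 1.40 CPM. In each of these genes every control library was more than 10 times as high as any treated one.

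Aco006931, a gene of 36 exons, had 239, 101 and 100 CPM in the controls against 6.34, 2.42 and 1.24 CPM. Aco014585 had 337, 43.2 and 34.7 CPM against 5.33, 4.63 and 0.622 CPM, again with replicate 1 far above the others. CPM does not allow for gene length. Per kb of exon the control means of the 5 genes, in the order named, were 444, 281, 113, 23.9 and 41.1 CPM, so that Aco006931 was the lowest of the 5 on that scale.

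A function or family was at hand here for 5 of the 200 genes, from the paper and the annotation beside it. The paper reports annotation for all of its DE genes, so a function missing here may well be known. Aco000466 encodes a VQ motif-containing protein, a family of small partners of WRKY transcription factors. It had 3.82, 5.87 and 8.89 CPM in the control leaf bases at 6 h and no count in the treated ones (at least 10.3-fold). Aco000882, of the U-box domain-containing protein kinase family, had 2.77, 4.49 and 6.08 CPM against no count (at least 7.36-fold). U-box domains occur in ubiquitin ligases, which mark proteins for degradation. Aco000238 belongs to the HXXXD-type acyl-transferases, enzymes that attach acyl groups to phenolics, alcohols and amines. It had 5.55, 9.67 and 6.22 CPM in the controls and 0, 0 and 0.156 CPM in the treated leaf bases (at least 11.8-fold).

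These 3 genes shared a simple profile, with 2.77 to 9.67 CPM in the control libraries at 6 h and a mean of 0.181 to 0.335 CPM over the later controls. Aco011198, an auxin response factor in the paper, had 12.8, 31.1 and 14.4 CPM in the controls and 0, 0.403 and 0.622 CPM in the treated leaf bases at 6 h. Auxin response factors bind the promoters of auxin-responsive genes. Unlike the 3 genes before it, Aco011198 was also abundant at the apex, where it was up to 34.6 CPM in a single control library on day 1.

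Aco029923, of the MATE efflux family of membrane transporters, was a weak member at 2.08, 1.38 and 0.445 CPM against no count (at least 2.16-fold). Aco000837, listed as an uncharacterized protein, had 3.12, 18.0 and 9.78 CPM against 0, 0.604 and 0.156 CPM. The hypothetical proteins Aco000853 and Aco000568 had control means of 5.19 and 10.1 CPM against 0 and 0.104 CPM. A set of 12 lists held 169 hormone, transcription factor, sugar, stress, signalling and flowering genes from the paper. The lists are not complete, since Aco011198 and Aco029923 are not on them, and none of the 169 was among the 200. Of the 165 listed genes tested in the leaf base at 6 h, 26 were DE up (15.8%) and 34 DE down (20.6%), against 8.59% and 11% of all genes tested. The paper named many of these genes for calls in these same libraries. Shares above those of all genes are therefore built in, and nothing is read from them. Of the AP2/ERTF transcription factors, the family that holds the ethylene response factors, 4 of 33 were DE up and 10 DE down. Of the listed genes of sugar and trehalose metabolism and transport, 3 of 15 were DE up and 6 DE down. Of those listed for ethylene synthesis and signalling, 4 of 17 were DE up and 2 DE down.

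Some of the genes were neighbours. With a limit of 5 gene models between successive members, 32 of the 200 fell into 14 groups, and 10 pairs were directly adjacent. The members lay on 24 linkage groups, with 187 on a linkage group and the rest on scaffolds. The largest group was on linkage group 19 of the v3 pineapple assembly, where 5 of 7 successive gene models between 9941816 and 9984302 were members. Its members Aco008382, Aco008386 and Aco008388 each had 2 exons and 660 bases of exon, and Aco008387 had 2 exons and 702 bases. These 4 genes had control means of 27.4, 12.9, 30.3 and 39.9 CPM at 6 h and treated means of 0, 0, 0 and 0.161 CPM, and replicate 2 was the highest control library in each.

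The fifth member there, Aco008383, had 7 exons and 180 CPM in the controls. The 2 models in between were not members but differed in the same direction, with log2 fold changes of -4.10 for Aco008385 (adjusted p = 2.82e-06) and -3.39 for Aco008384 (adjusted p = 0.041) by edgeR's quasi-likelihood test. Aco008385 spans Aco008386 and Aco008387, which lie on the opposite strand, and shares no exon with them. Reads with several positions were counted in each, and genes of equal length that lie side by side can be near-identical copies, so that the split of counts among them is uncertain. A second group of 3 adjacent models of 1 exon lay on linkage group 2 (Aco001281, Aco001280 and Aco001279, between 12743692 and 12751338), with control means of 5.07, 5.76 and 7.43 CPM and treated means of 0.0423, 0.0941 and 0.0423 CPM. Exons of 19 of the 200 genes overlapped another gene, and strand was not used in counting, so that those counts may belong in part to the neighbour.

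**Figure D2:**
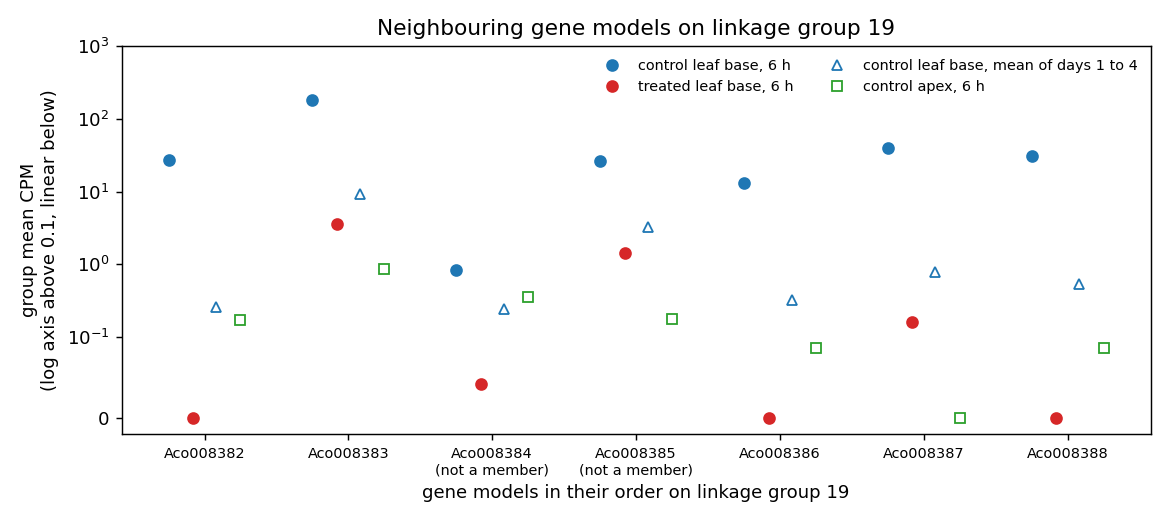
Group mean CPM (log axis above 0.1, linear below) of 7 successive gene models on linkage group 19, in the control and treated leaf base at 6 h, in the control leaf base over days 1 to 4 and in the control apex at 6 h. In all 5 members the control leaf base at 6 h lies above the other groups, from 12.9 CPM in Aco008386 to 180 CPM in Aco008383.

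The gene models were somewhat short. The median exon length of the 200 was 1115 bases with a median of 3 exons, against 1395 bases and 5 exons over all genes tested, and 43 (21.5%) had a single exon against 11.3% of all genes tested. The 200 strongest rises in the leaf base under the same conditions had a median of 1114.5 bases and 13.5% with a single exon, so that the short median was not particular to the falls. These are descriptions without a test.

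A low level after ethephon can be read only beside what the leaf base showed at other times. The 6 h groups were therefore set against the mean of the later controls, on the log2 scale of CPM plus 0.25. The control group at 6 h lay at least 1 above the later controls while the treated group lay within 1 of them in 132 of the 200 genes (66.0%). In 64 genes (32.0%) the control was at least 1 above and the treated group at least 1 below. In 1 gene, Aco003481, the treated group alone was low. The median of the control group was 3.13 above the later controls, and that of the treated group was -0.71. The added 0.25 sets a floor on this scale. A gene with later controls near 0 could therefore not be classed as low in the treated group. The later control means had a median of 0.3135 CPM, so that the split into 132 and 64 genes depends in part on this floor.

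In 171 of the 200 genes (85.5%) the control leaf base at 6 h had the highest mean of all 26 conditions, in 148 of them at least 2-fold and in 84 at least 5-fold above the next condition. Of the other 2263 genes DE down in the leaf base at 6 h, the control at 6 h was the highest condition in 1441 (63.7%), and of all 22448 genes counted for this, in 3578 (15.9%). Of the 117 genes DE down at 6 h in both tissues it was the highest in 45 (38.5%). In the mirror group of the 200 strongest rises, the treated leaf base at 6 h was the highest condition in 24 genes, and the control at 6 h had a median of -2.26 relative to the later controls. In both groups of genes the median of the control at 6 h lay away from the later controls, a position that the choice itself favours. The contrast at 6 h chose the genes, and these positions share its libraries and are descriptions. By the paper, the 6 h plants were harvested on the morning of the treatment. Processing of their samples also ended later in the day than at the later samplings. Time after treatment, the day of harvest and this handling cannot be told apart.

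**Figure D3:**
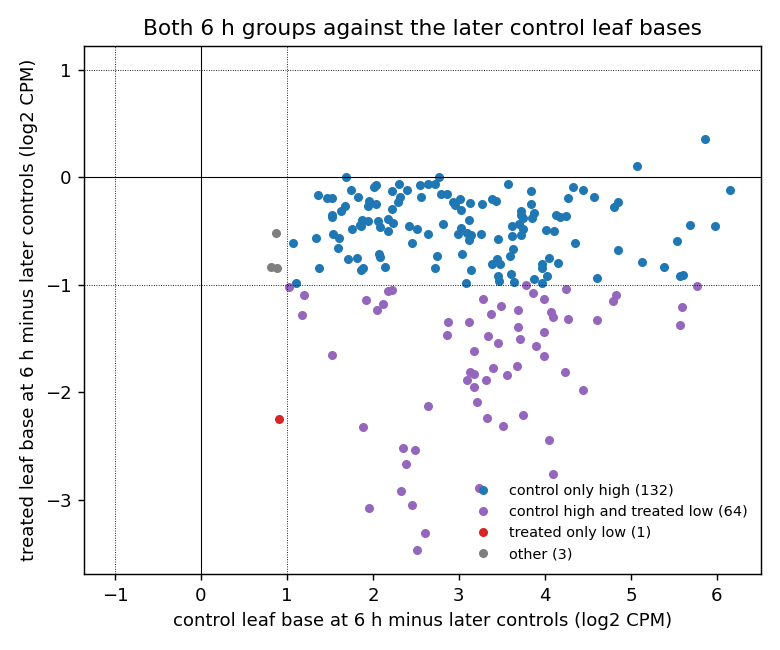
Control (horizontal) and treated (vertical) leaf base at 6 h, each minus the mean of the later control leaf bases (log2 CPM), for the 200 genes, with dotted lines at 1 and -1. The cloud lies to the right of 1, with 132 genes in the band where the control alone was high and 64 where the treated group was also low. Genes with very low later controls cannot lie far down on the vertical axis.

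After 6 h the controls were low as well. The summed level of the 200 genes in the control leaf base was 478 to 943 CPM on day 1, 119 to 462 on day 2, 72.4 to 208 on day 3 and 388 to 625 on day 4. In the treated leaf base it was 764 to 1120 CPM on day 1, 114 to 432 on day 2, 79.7 to 208 on day 3 and 94.1 to 337 on day 4. The libraries of both treatments overlapped on days 1, 2 and 3, and on day 4 every treated library was below every control library. In 140 of the 200 genes the mean of the later controls was under 1 CPM, and only 36 to 91 genes reached 1 CPM in either group of a later leaf base sampling.

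At the apex most of the genes were barely expressed. In 161 of the 200 (80.5%) the mean of the control apex at 6 h was under 1 CPM, against 24.9% of all genes tested in the leaf base at 6 h. At 6 h 48 of the genes had no count in any apex library and could not be tested there. Of the 152 others, 88 had a negative and 64 a positive log2 fold change with a median of -0.27, none had an adjusted p under 0.05, and 18 had an unadjusted p under 0.05. The absence of an apex call was a condition of the choice, and for most of the genes it says that they were not measurable at the apex, not that they did not respond there. Fewer cells that express a gene and less RNA per cell cannot be told apart in such pooled tissue.

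The tissues were compared in the water controls of days 1 to 4, libraries that the choice of genes did not use. The choice was still not neutral to tissue. A strong fall needs expression in the leaf base, and the absence of an apex call favours genes that are low there. Some excess of genes higher in the leaf base is therefore built in. Of 199 genes tested over 24 libraries, 92 were higher in the leaf base (46.2%, against 16.9% of all genes tested) and 25 lower (12.6%, against 12.1%). The median log2 difference, leaf base minus apex, was 1.47, against 0.05 for all genes. Only 66 of the genes reached 1 CPM in either tissue. Among the 10 lowest at 6 h, Aco002934 was 5.47 ± 0.89 (SE) higher in the leaf base on the log2 scale (adjusted p = 5.47e-05), with means of 1.01 CPM and 0, and Aco008555 was 3.29 ± 0.58 higher (adjusted p = 1.79e-05). Aco014230 did not pass the test (-0.59 ± 0.61, adjusted p = 0.411).

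The reverse order was seen in Aco017232, which was lower in the leaf base by -4.61 ± 0.37 on the log2 scale (adjusted p = 2.88e-11), with a mean of 13.9 CPM at the apex and 0.502 in the leaf base. With only genes at 1 CPM or more in 3 libraries, 46 of the members were higher in the leaf base and 21 lower. No lane held control libraries of both tissues on these days, so that lane and tissue cannot be told apart.

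The ethephon effect on these genes was tested anew at each later sampling in the leaf base. On day 1, 11 of 192 genes tested were DE up (5.73%, against 0.748% of all genes) and 7 DE down (3.65%, against 0.874%). On day 2, 1 of 175 was DE up (0.571%, against 0.898%) and none DE down (against 0.582%) by edgeR, with 14 at an unadjusted p under 0.05 in either direction and 1 in each direction by DESeq2. That count was 0 without control replicate 2 or treated replicate 3 and 3 without control replicate 1 or 3. On day 3, 3 of 162 were DE up (1.85%, against 4.03%) and 8 DE down (4.94%, against 3.1%). Those DE up included Aco027531 and Aco028538, which had nearly the same profile and may not be separate signals. On day 4, 1 of 182 was DE up (0.549%, against 1.4%) and 15 DE down (8.24%, against 2.23%). The median log2 fold changes were 0.23, -0.08, -1.21 and -1.34 from day 1 to day 4, against medians of all genes between -0.03 and -0.01.

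These counts rested in part on single libraries and on genes with few counts. On day 1, 11 members were DE without treated replicate 1 (4 up and 7 down), 10 by DESeq2 and 2 when only genes at 1 CPM or more in 3 libraries were fitted, both of them up. On day 3 the count of 11 was 5 without control replicate 2, 19 without control replicate 3, and 7, 6 and 6 without treated replicates 1, 2 and 3. On day 4 no member was DE by edgeR without control replicate 2, with 22 at an unadjusted p under 0.05, and 6 were DE without treated replicate 2. In the 1 lane with both treatments on day 1 (1 control and 2 treated libraries), all 18 members called differed in the direction of their call, but the calls were made with these same libraries and are not checked by it. On days 3 and 4 no lane held both treatments, so that lane and treatment cannot be told apart there.

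**Figure D4:**
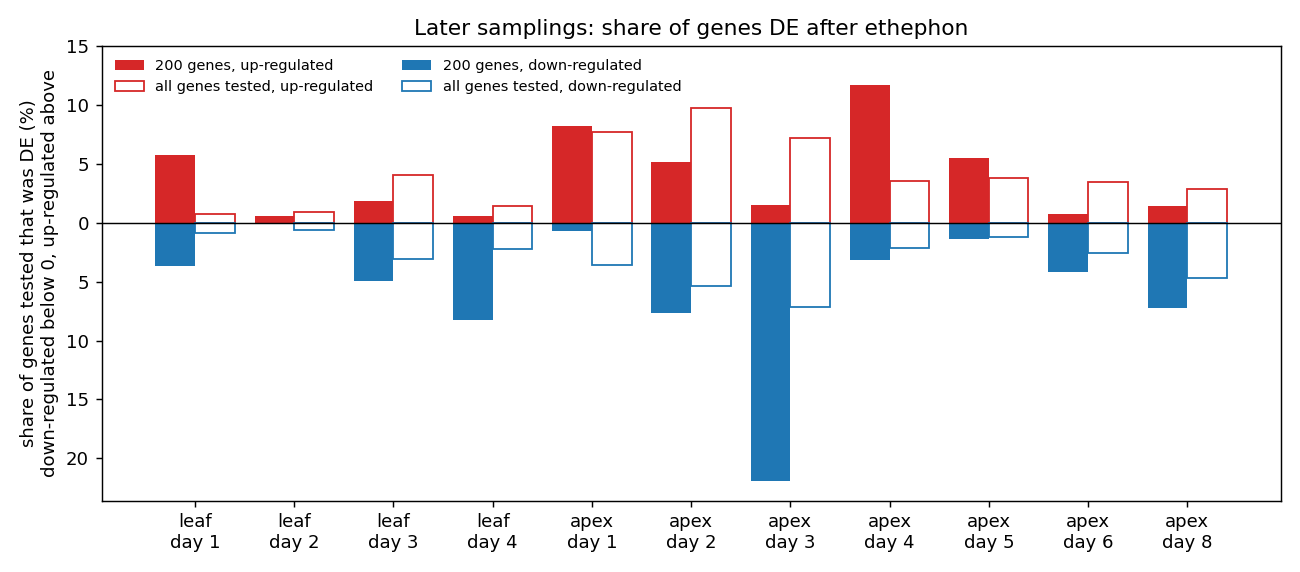
Share of the genes tested that was DE after ethephon in each later sampling (percent, up-regulated above 0, down-regulated below), for the 200 genes (filled bars) and for all genes tested (open bars). The highest filled bar is that for apex genes down-regulated on day 3, 21.9% against 7.19%.

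In all, 35 genes were DE in at least 1 later leaf base sampling (17.5%, against 10.9% of all genes tested at 6 h) and 11 in at least 2 (5.5%, against 2.33%). Of these 11, 8 were DE in opposite directions at 2 times (72.7%, against 59.8% of the 523 such genes among all tested). Aco005441, of 1 exon on linkage group 11, had 4.97, 2.28 and 4.37 CPM in the controls and 22.9, 8.76 and 17.2 CPM in the treated leaf bases on day 1 (log2 fold change 2.05 ± 0.35 SE, adjusted p = 0.00426). On day 4 it had 12.6, 8.49 and 7.10 CPM in the controls and 1.58, 0.689 and 0 CPM in the treated ones (-3.55 ± 0.56, adjusted p = 0.00161). It was thus low in treated leaf bases at 6 h and on day 4 and high on day 1, with no overlap at any of the 3 times.

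Aco015474, also of 1 exon, was up-regulated on day 1 (4.49, 6.56 and 12.9 CPM against 19.3, 14.4 and 26.6 CPM) and down-regulated on day 4 (5.83, 21.4 and 8.45 CPM against 1.26, 0.689 and 1.96 CPM). Aco007255 was 2.33 ± 0.55 on the log2 scale on day 1 (adjusted p = 0.0274) and -2.13 ± 0.54 on day 4 (adjusted p = 0.0295). Aco002033 and Aco002030, a pair of 1-exon models with 429 bases each on linkage group 4, were 2.22 ± 0.47 and 2.74 ± 0.62 on day 1 and -2.24 ± 0.40 and -2.60 ± 0.56 on day 4. On day 1 these 5 genes were up-regulated, whereas on day 4 they were down-regulated, and each had no overlap between the treatments on either day. The day 4 calls of all 5 were lost without control replicate 2, when no member was DE. Without treated replicate 1, 4 members in place of 11 were DE up on day 1.

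For Aco005669 and Aco019527 the day 1 call was up-regulation and the day 3 call down-regulation. Aco019527 had 8.82, 4.85 and 10.8 CPM in the controls against 16.5, 21.2 and 14.6 CPM in the treated leaf bases on day 1, and 2.88, 7.64 and 4.72 CPM against 0, 0 and 0.593 CPM on day 3. Aco022026 went the other way. It had 120, 6.84 and 2.57 CPM in the controls against 1.00, 0 and 0 CPM on day 1, and 0.194, 0 and 0 CPM against 0, 0.689 and 8.49 CPM on day 4. In Aco022026 replicate 1 held most of the counts of the controls at 6 h (286, 15.6 and 10.5 CPM) and on day 1, and replicate 3 held those of the treated group on day 4. Its day 4 call was also lost without control replicate 2.

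The change of the ethephon effect between samplings was tested in 1 model for day 1 and day 4 and 1 for day 1 and day 3, a test added after these calls were seen. It was not repeated with other settings or without single libraries. No lane held both treatments on day 3 or day 4, so that a change of effect cannot be told apart from lane. From day 1 to day 4 the effect fell in 23 of 199 genes tested (11.6%, against 3.25% of all genes) and rose in 2 (1.01%, against 2.32%). From day 1 to day 3 it fell in 15 of 192 (7.81%, against 3.88%) and rose in none (against 4.86%) by edgeR's quasi-likelihood test, with 43 at an unadjusted p under 0.05 in either direction. All 8 genes with opposite calls passed this test for the pair of days at which they were called. They were picked for those calls in the same libraries, so that passing was nearly fixed by the choice and does not check it.

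**Figure D5:**
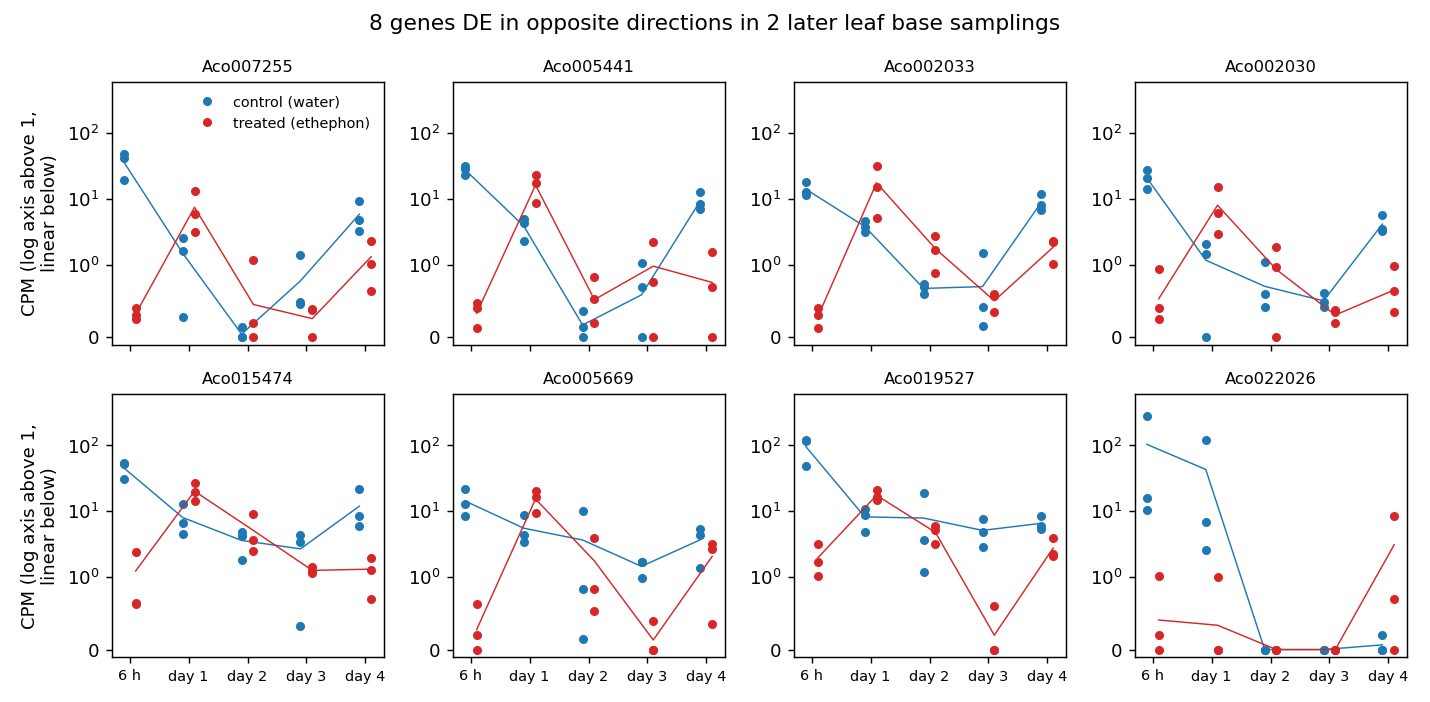
CPM (log axis above 1, linear below) in the 3 control and 3 treated leaf base libraries at each sampling for the 8 genes, with lines through the means. In 7 of the 8 the treated mean lies below the control mean at 6 h, above it on day 1 and below it on day 4, and Aco022026 shows the reverse on days 1 and 4.

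The other 3 genes with calls at 2 times were down-regulated at both. Aco001249 had 10.0, 19.7 and 6.02 CPM in the controls against 1.33, 2.26 and 2.57 CPM on day 3 (-2.54 ± 0.42, adjusted p = 0.00058) and 24.9, 95.0 and 34.4 CPM against 8.20, 5.51 and 21.9 CPM on day 4 (-2.10 ± 0.47, adjusted p = 0.0149). Aco023405 was -1.37 ± 0.36 on day 3 (adjusted p = 0.0153) and -1.74 ± 0.40 on day 4 (adjusted p = 0.0161). Aco001824 was -1.47 ± 0.48 on day 3 (adjusted p = 0.049), where 1 treated library lay within the range of the controls, and -1.32 ± 0.36 on day 4 (adjusted p = 0.0422). The day 4 calls of all 3 genes were lost without control replicate 2.

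Where the genes were expressed at the apex, some of them differed between treated and control apices at later times, in comparisons without a shared lane. The clearest sampling was day 3, when 30 of 137 genes tested were DE down (21.9%, against 7.19% of all genes) and 2 DE up (1.46%, against 7.2%), with a median of -1.84 against 0 for all genes. The summed level was 349 to 499 CPM in the control apices and 62.0 to 102 CPM in the treated ones, without overlap. Aco010977 had 29.7, 12.2 and 7.68 CPM in the controls and no count in the treated apices on day 3 (at least 20.8-fold, adjusted p = 1.51e-07), and it was named after its values were seen. Aco017232 had 15.0, 14.4 and 19.5 CPM against 0, 0 and 0.134 CPM (at least 20.5-fold, adjusted p = 4.14e-10).

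On day 4, 15 of 128 genes were DE up (11.7%, against 3.53%) and 4 were DE down (3.13%, against 2.12%). Of the 30 genes down-regulated on day 3, 11 were among the 15 up-regulated on day 4, which is 36.7% of the first group and 73.3% of the second. Over all genes tested 190 had this pair of calls, 12.2% of those down-regulated on day 3 and 24.7% of those up-regulated on day 4. The difference between the members and all genes was not tested. Aco005669 had 30.2, 15.5 and 52.2 CPM against 0.746, 0.793 and 3.74 CPM on day 3 (-3.91 ± 0.44) and 3.36, 5.13 and 5.35 CPM against 23.4, 20.4 and 18.1 CPM on day 4 (2.14 ± 0.21). Aco008591 and Aco019527 showed the same pair of calls, and Aco008591 was DE in 6 of 7 apex samplings after 6 h, up-regulated on days 1, 4 and 5 and down-regulated on days 2, 3 and 8.

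The other apex samplings gave fewer calls. On day 1, 11 of 134 genes were DE up (8.21%, against 7.7%) and 1 DE down (0.746%, against 3.63%). The 1 gene down-regulated was Aco011198, the auxin response factor, with 34.6, 21.9 and 19.9 CPM in the controls against 7.83, 5.07 and 3.24 CPM in the treated apices (-2.19 ± 0.29, adjusted p = 1.58e-06). It was also down-regulated on day 2 (7.21, 13.5 and 9.52 CPM against 1.80, 1.69 and 1.59 CPM, -2.55 ± 0.35, adjusted p = 7.50e-06). Both days showed no overlap between the groups.

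On day 2, 6 of 117 were DE up (5.13%, against 9.76%) and 9 DE down (7.69%, against 5.34%). On day 5, 8 of 145 were DE up (5.52%, against 3.83%) and 2 DE down (1.38%, against 1.23%). On day 6, 1 of 143 was DE up (0.699%, against 3.46%) and 6 DE down (4.20%, against 2.59%). On day 8, 2 of 138 were DE up (1.45%, against 2.82%) and 10 DE down (7.25%, against 4.73%). Of these 10, 9 were among the 30 down-regulated on day 3, which is 90% of the later and 30% of the earlier group, against 35.6 and 23.6% over all genes. The count of day 2 was 9 in place of 15 without control replicate 1 or 2, and that of day 6 was 2, 3 and 4 in place of 7 without control replicate 3, treated replicate 1 and treated replicate 2.

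Some genes stood out at the apex. Aco017232 was down-regulated on days 2, 3, 4, 5 and 8. Aco028538 had no count in the control apices of day 1, day 2, day 4 or day 5, but its highest level of all was in those of day 6, with 41.9, 283 and 0 CPM against 5.68, 78.9 and 0.640 CPM in the treated ones (-1.93 ± 1.08, adjusted p = 0.227). On day 3 it had 0, 0 and 6.40 CPM in the controls and did not pass the test. The treated apices of day 1 had 2.55, 3.74 and 4.59 CPM (at least 3.47-fold, adjusted p = 7.59e-05). In the leaf base its 15.0, 76.4 and 0 CPM in the treated libraries on day 3 lay in 2 of 3 libraries, against 0.152, 0 and 0 CPM in the controls. Another member, Aco027531, had nearly the same profile. Its group mean was 111 CPM in the control apices of day 6, against 108 CPM for Aco028538. In the treated leaf bases of day 3 the means were 31.7 and 30.5 CPM. Reads with several positions were counted in each gene, and whether these genes share reads was not tested. Aco029923, the MATE family gene, rose in the day 3 apex samples, from 0.167, 0.320 and 0.256 CPM to 3.73, 3.44 and 1.87 CPM (3.43 ± 0.68, adjusted p = 0.000483), the direction opposite to that at 6 h in the leaf base. No apex comparison had a lane with both treatments, so that lane and treatment cannot be told apart. Of the 200 genes, 131 were not DE in any later comparison of either tissue (65.5%, against 63.6% of all genes tested at 6 h).

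The limit of the choice fell within a close series of values. The last genes inside were Aco022655 (log2 fold change -5.09) and Aco025743 (-5.08), and the first outside were Aco017317 (-5.07) and Aco002151 (-5.06). Aco022655 rested on few counts, with 0, 1.38 and 0.889 CPM in the controls and none in the treated leaf bases at 6 h. Aco025743 had 45.4, 75.0 and 40.8 CPM against 0.634, 2.62 and 1.71 CPM and was also down-regulated in the leaf base on day 4 (-1.31 ± 0.32, adjusted p = 0.024), again not without control replicate 2. When the choice was repeated without 1 of the 6 leaf base libraries in turn, 141 to 173 of the 200 were chosen again, fewest without treated replicate 1.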

How the data were processed

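RNA was sequenced from pineapple leaf bases and apices in 78 libraries of 26 conditions, 3 replicates each, grouped by their labels alone. The labels number the samplings, and the times of the paper were used for them. Per the labels and file headers, the authors trimmed reads with Trimmomatic 0.36, aligned them with HISAT2 2.0.5 and deposited raw counts per gene from featureCounts 1.6.0 (paired reads, reads with several positions counted, no strand option in the header), on the v3 assembly. Total counts were 1418697 to 13180667 per library (median 5364716), and the test covers counting error at these depths.

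The members and lists were chosen with earlier results of these data known. Each comparison was fitted on its own 6 libraries with edgeR 4.0.16 in R 4.3.3 (TMM factors, quasi-likelihood test, all genes with 1 or more counts) and adjusted by Benjamini-Hochberg over all genes. Water controls of days 1 to 4 were compared between tissues with sampling as a factor. CPM used TMM factors over all libraries, and log2 positions used CPM plus 0.25. A fold against a group with no library above 3 counts is a lower bound, the other group's mean over 3 counts in the shallowest library. Standard errors come from the test statistic. The fits were tested on simulated data with changes placed only in genes with many counts. Genes with few counts, as most members had at later samplings, were not covered by it. DESeq2 1.42.0, RLE factors, a filter of 1 CPM in 3 libraries, no fold limit, a replicate block and each library left out were alternatives. One gene is not reported here.

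Named genes were the 10 lowest fold changes, members with a function at hand, those DE in 2 or more later leaf base samplings, the 5 DE in most apex samplings, the 5 highest in CPM and those beside the limit of the choice. Genes of the 2 groups of neighbours, Aco003481 and Aco010977 were added after their values were seen. Same-numbered control and treated libraries did not deviate together in any of the 13 comparisons (correlations of -0.37 to 0.20, not all above 0.1), so replicate numbers were not used as pairs.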

Additional observations from a re-analysis of the deposited data

Results flagged for a closer look

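The ethephon effect in the leaf base differed between samplings in 8 named genes, by a test of the difference itself (edgeR, day and treatment with their interaction, adjusted over all genes). Between day 1 and day 4 the log2 effect changed by -5.62 ± 0.70 (SE) in Aco005441 (adjusted p = 0.000181), by -5.36 ± 0.97 in Aco002030 (adjusted p = 0.00199), by -4.55 ± 0.71 in Aco015474 (adjusted p = 0.000632), by -4.47 ± 0.72 in Aco002033 (adjusted p = 0.000887), by -4.47 ± 0.87 in Aco007255 (adjusted p = 0.00334) and by 11.83 ± 2.67 in Aco022026 (adjusted p = 0.00952). Between day 1 and day 3 it changed by -5.70 ± 0.77 in Aco019527 (adjusted p = 4.03e-05) and by -4.73 ± 0.92 in Aco005669 (adjusted p = 0.00143). These genes were picked for opposite calls on the same days, and the test does not check that choice. No lane held both treatments on day 3 or day 4, so that lane and treatment cannot be told apart there. In Aco022026 a single library held most of the counts of each of the higher groups.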

How the results depend on the processing

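The counts of genes whose effect changed between days were not repeated under the alternatives. With RLE factors and with no fold limit, each other count of members stayed within 1.5 times of its value. When only genes at 1 CPM or more in 3 libraries were fitted, members called fell to 2 in the leaf base on day 1, 0 on day 2 (3 at an unadjusted p under 0.05 by edgeR), 6 on day 3 and 10 on day 4, to 4 at the apex on day 6, and to 67 between tissues, partly because fewer genes were tested. DESeq2 gave 10 on leaf base day 1, 2 on day 2, and at the apex 9 on day 2 and 2 on day 6. Leaving out 1 library at a time gave 11 to 23 on leaf base day 1, 0 to 3 on day 2, 5 to 19 on day 3 and 0 to 23 on day 4. At the apex it gave 8 to 16 on day 1, 9 to 18 on day 2, 24 to 37 on day 3, 13 to 18 on day 4, 8 to 12 on day 5, 2 to 9 on day 6 and 9 to 11 on day 8. Between tissues 83 to 92 were called without 1 replicate of every group. The choice of the 200 genes kept 141 to 173 of them without 1 leaf base library, 200 with RLE factors, 184 with the replicate block, 176 with DESeq2 and 135 with the CPM filter.

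No pairing by replicate number was detected, which does not show that the field replications, each with both treatments, had no effect. With the replicate block, the counts in the leaf base were 25, 1, 12 and 16 on days 1 to 4, those at the apex 11, 12, 32, 17, 10, 7 and 11 on days 1 to 6 and 8, and that between tissues 94, all within 1.5 times of the counts without it. The cause of the other changes was not tested. Few members reached 1 CPM in the later samplings, where a missing call does not show that the levels were equal.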
